A study of Homo sapiens with 9 samples.

Results

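The genes examined here encode the proteins of the mitochondrial ribosome. They were chosen by symbol, as every gene named MRPL or MRPS followed by a number and, in some cases, a letter from A to C. DAP3, which encodes a protein of the small subunit, was added. The rule found 79 genes among the 25084 in the deposited table, and all 79 passed the filter on low values. RNA was sequenced from LAN5, an established human neuroblastoma line with extra copies of MYCN, grown as a bulk culture in serum-containing medium. All cells were electroporated with an siRNA and collected 72 h later. The 3 groups of 3 libraries received a control siRNA (siCTR), 1 siRNA labelled siMYCN_2 (siMYCN below) or 1 siRNA labelled siHAND2_3 (siHAND2 below). The groups therefore share the line and the electroporation, and each knockdown rests on 1 siRNA sequence.

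Mitochondria keep their own ribosome, which makes the few respiratory chain proteins that are encoded in mitochondrial DNA. Its rRNAs are transcribed inside the organelle, whereas its proteins are encoded in the nucleus, made in the cytosol and imported. Some of these proteins descend from bacterial ribosomal proteins and others were added during mitochondrial evolution. MYC family factors are known for raising transcripts of ribosome and mitochondrial genes, and HAND2 is a basic helix-loop-helix factor of the sympathetic lineage.

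Values were CPM, the reads of a gene scaled to a fixed total in every library, so each is a share of the library and not an amount per cell; in bulk RNA, fewer cells with a transcript and less of it per cell cannot be told apart. Low values put the depth at 21.1 to 32.7 M reads per library. The labels do not say that libraries came from separate cultures, so p-values measure the spread between these libraries, which may be technical. The 8 neuroblastoma and sympathetic markers were all detected, with summed means of 2489 CPM for siCTR, 3022 for siMYCN and 2530 for siHAND2, and every siMYCN library above all others; none of the Schwann, endothelial or leukocyte markers averaged 1 CPM, and 3 of 4 fibroblast markers did (summed means of 92.4 CPM for siCTR, 105 for siMYCN and 194 for siHAND2); the part of these markers in the results was not tested. The MYCN transcript averaged 1842 ± 54.2 CPM with siCTR, 1289 ± 47.0 with siMYCN and 914 ± 48.4 with siHAND2 (SD over 3 libraries). MYCN was thus at 70.0% of control in siMYCN, where it is the target. In siHAND2, where it is not the target, MYCN was lower still, at 49.6% of control. HAND2 averaged 501 ± 13.7, 571 ± 15.9 and 272 ± 7.65 CPM in the same order, which is 54.2% of control in siHAND2.

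Per kilobase of reference transcript, the siCTR level of the members ran from 6.24 CPM for MRPL22 to 96.6 CPM for MRPL51, a 15.5-fold range around a median of 27.7. MRPL27 (82.0 CPM per kilobase) and MRPL33 (76.2) followed MRPL51, and MRPS33 (6.56) and MRPL19 (7.02) lay just above MRPL22. The median was 28.7 CPM per kilobase over the large subunit and 23.6 over the small subunit. A long reference transcript lowers such a value: MRPL42, with the highest mean level before division by length (142 CPM), was given a reference transcript of 15557 bases and fell to 9.33 CPM per kilobase in siCTR. The other high levels before division by length were MRPL3 (109 CPM over all 9 libraries) and MRPL35 (90.2), and the lowest were MRPL53, MRPS12 and MRPL2, each between 11.8 and 12.9 CPM. The libraries of a group repeated each other closely, with a median coefficient of variation over members of 3.34% in siCTR, 3.59% in siMYCN and 3.96% in siHAND2. The rule takes only genes; of 10 related pseudogenes in the table, MRPS31P5 reached 18.6 CPM, near the level of MRPS31, so reads could be shared between that pair, and the others stayed at or under 1.38 CPM.

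Promoters were searched for letters that the factors are known to prefer, since many members were lower together in siMYCN. The stretch of 250 bases before the RefSeq start was given for 71 of the 79 members (GRCh38.p14). MYC family dimers favour CACGTG, and 7 of 71 promoters (9.86%) held it, against 6.49% of all 27305 promoters and 9.02% of the 10364 promoters of genes tested. CATCTG, a form favoured by HAND family dimers, was in 1 promoter (1.41%), that of MRPL9, against 12.2% of all promoters and 7.81% of those tested. CCGGAAG, the core letters of ETS factors, was in 23 promoters (32.4%), against 8.82% and 16.4%. Of the members with CCGGAAG, 8 of 23 (34.8%) were lower in siMYCN (median log2 difference -0.10), and of those without it 20 of 48 (41.7%, median -0.12). Of all genes tested, 11.4% were lower in siMYCN and 24.5% higher. Both strands were read, none of these motifs contains another, and the members' promoters had a median GC content of 60.8%, against 58% over all. The windows below show CACGTG in capitals in 6 of the 7 promoters that held it, 5′ to 3′ on the gene's strand, because the members called in siMYCN or siHAND2 can be set beside those not called; MRPS36 is the seventh.
MRPL45: cactcccgcgagCACGTGcgcgtcctcgct
MRPL36: acgtgggcacgcCACGTGaccccccccccc
MRPL49: cggctCACGTGgggaaggccaggcctccca
MRPL37: tgcgcttcacctCACGTGaggattttccag
MRPL22: ttttcggaagccCACGTGctttcggccttt
MRPS18C: aatcataagcctCACGTGacctgccgcgta
The windows lie at chr17:38297023-38297052 (MRPL45, plus strand), chr5:1799876-1799905 (MRPL36, minus strand), chr11:65121933-65121962 (MRPL49, plus), chr1:54199985-54200014 (MRPL37, plus), chr5:154940885-154940914 (MRPL22, plus) and chr4:83455867-83455896 (MRPS18C, plus). The motif began 133 bases before the RefSeq start of MRPL45, 56 before that of MRPL36 and 245 before that of MRPL49. The deposited table places some starts elsewhere, at 38297023 for MRPL45, 1801366 for MRPL36 and 54184041 for MRPL37. By those starts these windows lie inside the gene, and the windows of MRPL22, MRPL49 and MRPS18C lie before it. Of the 7 members with CACGTG, MRPL45 and MRPL36 were lower in siMYCN and MRPL49 was higher, with a median log2 difference of -0.14. Of the 64 promoters without it, 26 (40.6%) belonged to members lower in siMYCN, with a median of -0.12. In siHAND2, 2 of the 7 (28.6%, MRPL45 and MRPL37) and 8 of the 64 (12.5%) were lower, with medians of -0.055 and -0.071. Of all genes tested, 11.8% were lower in siHAND2, near the share of the 64. A match of letters is a description of the window and not a bound site.

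The summed level of the 79 members was lower in siMYCN and, by a smaller amount, in siHAND2. The sum was 3297, 3336 and 3358 CPM in the siCTR libraries, 3024, 3036 and 3004 with siMYCN and 3141, 3135 and 3215 with siHAND2. All siMYCN libraries lay below all siHAND2 libraries, and these lay below all siCTR libraries. The means were 3330 ± 31.1, 3022 ± 16.1 and 3164 ± 44.8 CPM (SD, n = 3), which is 90.7% of siCTR in siMYCN and 94.99% in siHAND2. The large subunit stood at 91.1% and 95.7% of siCTR, and the small subunit at 89.9% and 93.5%. The proteins of the cytosolic ribosome stood lower in both groups, at 72.6% in siMYCN and 88.9% in siHAND2.

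**Figure D1:**
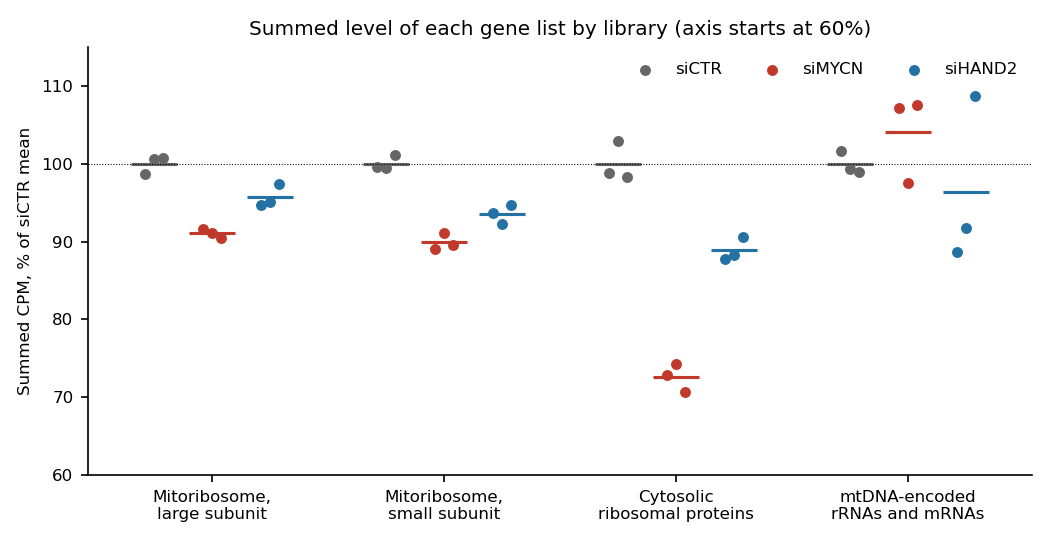
Summed CPM of 4 gene lists in each library, as a percentage of the siCTR mean of that list (y axis, starting at 60%); points are the 3 libraries of each group and lines are group means. The group means of both mitoribosome subunits lie between 89.9% and 95.7% of siCTR in the knockdowns, the mean of the cytosolic ribosomal proteins is at 72.6% in siMYCN, and the mtDNA-encoded list has libraries on both sides of 100%.

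In siMYCN against siCTR, 32 of 79 members were lower and 1 was higher at a Benjamini-Hochberg adjusted p under 0.05 (limma on log2(CPM + 1)), and 46 did not pass. Over all 14495 genes tested, 11.4% were lower and 24.5% higher. The median log2 difference of the members was -0.13, with a range from -0.45 to 0.14, beside a median of 0.060 over all genes tested. Falls were modest: the members called lower stood at 73.0% to 90.7% of their siCTR mean, with a median of 85.2%. In 49 members all 3 siMYCN libraries lay below all 3 siCTR libraries, which held for 16.1% of genes tested, and in 2 (MRPL41 and MRPL49) they lay above, which held for 33.4%. Among the 9366 genes tested with a mean at least that of the lowest member, 13.9% were lower.

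**Figure D2:**
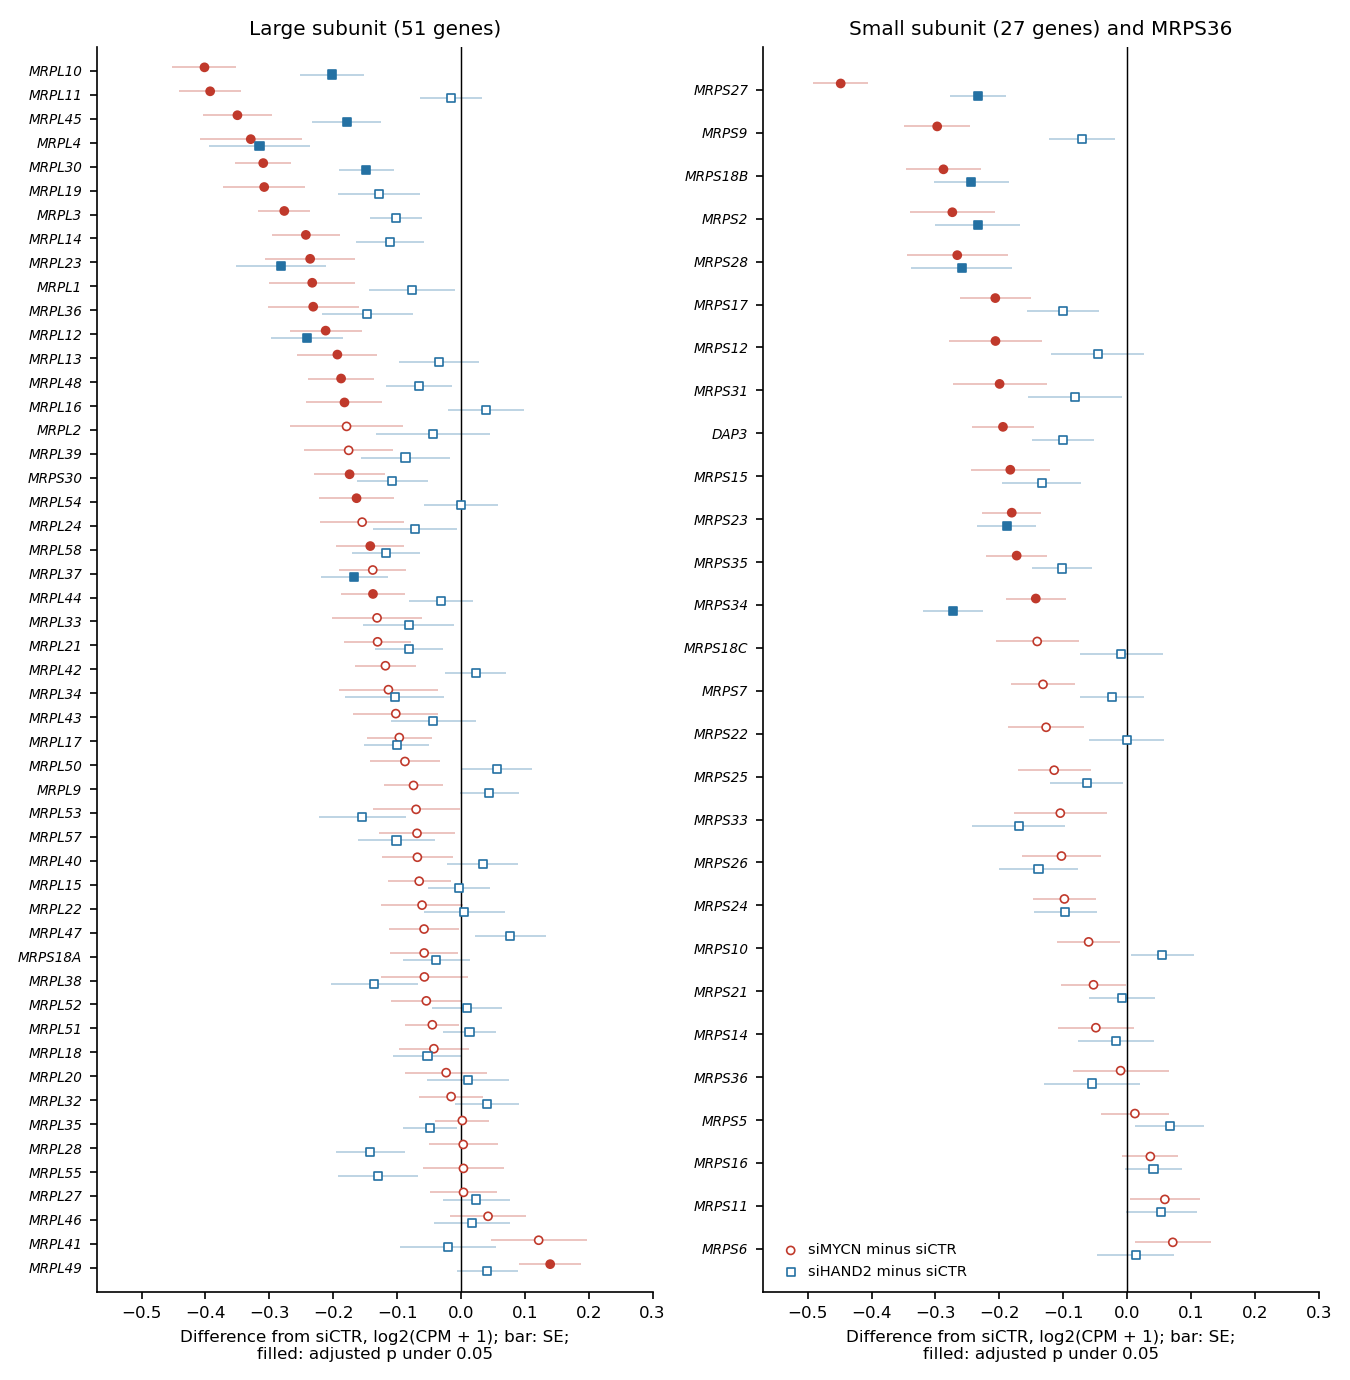
Difference from siCTR on the log2(CPM + 1) scale for each member in siMYCN (red circles) and siHAND2 (blue squares), with the limma standard error as bars and filled symbols where the adjusted p was under 0.05; the left panel holds the 51 genes of the large subunit and the right panel the 27 of the small subunit and MRPS36. Most symbols lie left of 0, with 32 filled circles there for siMYCN and 13 filled squares for siHAND2.

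All 4 structural classes held members lower in siMYCN, at shares from 28.6% to 63.6% of the class. Over all genes tested, 11.4% were lower and 24.5% higher. Of the 30 large-subunit proteins with a bacterial counterpart, 13 were lower (median -0.14), and of the 21 that are specific to mitochondria, 6 were lower and 1 higher (median -0.088). Of the 16 small-subunit proteins with a bacterial counterpart, 6 were lower (median -0.11), and of the 11 specific to mitochondria, 7 were lower (median -0.17). MRPS36, which is now assigned to the 2-oxoglutarate dehydrogenase complex and not to the ribosome, averaged 16.9 CPM with siCTR, 16.8 with siMYCN and 16.3 with siHAND2 and was not called. MRPS30 and MRPS18A sit in the large subunit despite their names and were counted there. Beside the members described below, those lower in siMYCN in the large subunit ran from MRPL19 (log2 difference -0.31) through MRPL14, MRPL1, MRPL36, MRPL13, MRPL48, MRPS30, MRPL54 and MRPL58 to MRPL44 (-0.14). In the small subunit they were MRPS2 (-0.27), MRPS17, MRPS31, MRPS15, MRPS23 and MRPS35 (-0.17). Differences between the classes were not tested.

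MRPL10 and MRPL11 had the largest falls of the large subunit in siMYCN; both belong to the stalk region, through which the large subunit recruits translation factors. MRPL10, the stalk protein that carries the copies of MRPL12, measured 47.3, 51.3 and 47.0 CPM with siCTR, 37.2, 36.6 and 35.7 with siMYCN, and 42.7, 42.0 and 41.4 with siHAND2. The 3 groups did not overlap, with siMYCN lowest and siHAND2 in between. Its log2 difference in siMYCN was -0.40 ± 0.050 (SE; limma adjusted p = 1.43e-05). MRPL11, at the base of the stalk, measured 44.3, 45.2 and 43.2 CPM with siCTR, 34.9, 32.9 and 32.6 with siMYCN, and 43.1, 43.9 and 44.2 with siHAND2. Here the siMYCN libraries stood apart while the siHAND2 and siCTR libraries overlapped (siMYCN log2 difference -0.39 ± 0.049, limma adjusted p = 1.37e-05). MRPL12 itself measured 43.9, 46.4 and 42.9 CPM with siCTR, 37.8, 39.1 and 37.6 with siMYCN, and 38.2, 39.5 and 34.7 with siHAND2, so both knockdowns lay below siCTR and overlapped each other.

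MRPL4, MRPL30, MRPL45 and MRPL3 of the large subunit also fell in siMYCN. MRPL4, whose bacterial counterpart lines the tunnel, measured 26.96, 28.0 and 27.5 CPM with siCTR, 23.5, 21.4 and 20.2 with siMYCN, and 22.8, 24.2 and 19.0 with siHAND2. Both knockdowns were below every siCTR library (siMYCN log2 difference -0.33 ± 0.079, limma adjusted p = 0.00415). MRPL30, another large-subunit protein with a bacterial counterpart, measured 93.2, 93.8 and 96.8 CPM with siCTR, 77.6, 76.1 and 74.6 with siMYCN, and 83.2, 83.7 and 89.0 with siHAND2, with no overlap between the 3 groups (siMYCN log2 difference -0.31 ± 0.044, limma adjusted p = 4.57e-05). MRPL45, which sits at the tunnel exit and anchors the ribosome to the inner membrane, measured 31.5, 33.9 and 33.0 CPM with siCTR, 24.5, 25.7 and 26.4 with siMYCN, and 28.8, 29.04 and 28.8 with siHAND2. It was the largest fall among the large-subunit proteins specific to mitochondria (log2 difference -0.35 ± 0.054, limma adjusted p = 0.000105), and its promoter window with CACGTG is printed above. MRPL3, next to the peptidyl transferase centre, fell to 82.4% of siCTR in siMYCN (118 to 97.5 CPM; log2 difference -0.28, limma adjusted p = 6.71e-05).

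In the small subunit, MRPS27 had the largest fall of all members in siMYCN. This pentatricopeptide repeat protein measured 101, 107 and 101 CPM with siCTR, 73.9, 77.1 and 74.6 with siMYCN, and 84.9, 87.6 and 90.0 with siHAND2. The 3 groups did not overlap, and siMYCN stood at 73.0% of siCTR (log2 difference -0.45 ± 0.043, limma adjusted p = 1.14e-06). MRPS9, of the subunit head, measured 35.2, 33.6 and 34.4 CPM with siCTR, 28.4, 27.6 and 27.5 with siMYCN, and 32.4, 31.9 and 33.9 with siHAND2, with siMYCN below both other groups (log2 difference -0.30 ± 0.051, limma adjusted p = 0.000299). DAP3, a GTP-binding protein first described in cell death, measured 57.2, 57.7 and 54.2 CPM with siCTR, 48.5, 51.3 and 47.7 with siMYCN, and 53.9, 51.2 and 52.4 with siHAND2. It fell in siMYCN to 87.2% of siCTR (limma adjusted p = 0.00534), and its 1041 bases shared with YY1AP1 on the opposite strand carry reads that cannot be assigned to one gene without strand. MRPS12, the decoding-centre protein and 1 of the 3 members with the lowest level, was at 85.8% of siCTR in siMYCN (limma adjusted p = 0.0367). Its call was lost without any 1 of siCTR replicates 1, 2 and 3 or siMYCN replicates 1 and 2, and with no filter on low values (adjusted p from 0.0622 to 0.108; 0.00845 to 0.108 over all alternatives).

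The paralogs MRPS18A, MRPS18B and MRPS18C occupy different places in the ribosome and differed in their values. MRPS18B measured 38.1, 37.2 and 41.0 CPM with siCTR, 31.6, 29.99 and 33.2 with siMYCN, and 33.9, 31.1 and 32.7 with siHAND2. Both knockdowns lay below siCTR, with log2 differences of -0.29 for siMYCN (limma adjusted p = 0.00114) and -0.24 for siHAND2 (limma adjusted p = 0.00467). It shares 773 bases with PPP1R10 on the opposite strand, whose own log2 differences of 0.062 and 0.081 were not called. MRPS18A averaged 33.7 CPM with siCTR, 32.4 with siMYCN and 32.8 with siHAND2. MRPS18C averaged 30.2 CPM with siCTR and 27.3 with siMYCN and measured 27.7, 30.6 and 31.7 with siHAND2, and neither was called in any comparison. Whether the paralogs differ from each other was not tested.

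MRPL49, a large-subunit protein specific to mitochondria, was the 1 member called higher in siMYCN. It measured 55.0, 53.5 and 58.0 CPM with siCTR, 63.3, 61.0 and 59.3 with siMYCN, and 58.7, 56.7 and 55.9 with siHAND2. The siMYCN libraries lay above siCTR by a narrow margin (110.3% of siCTR; log2 difference 0.14 ± 0.048, limma adjusted p = 0.0325). The call did not hold in fits lacking siCTR replicate 1 or 2 or siMYCN replicate 1 or 2 (adjusted p from 0.0664 to 0.140; 0.0191 to 0.219 over all alternatives) and under median-ratio rescaling, quantile normalization or no intensity trend, which leaves 0 members higher. Its 5189 bases lie inside SYVN1 on the opposite strand, whose log2 difference of 0.20 was not called (limma adjusted p = 0.0592).

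**Figure D3:**
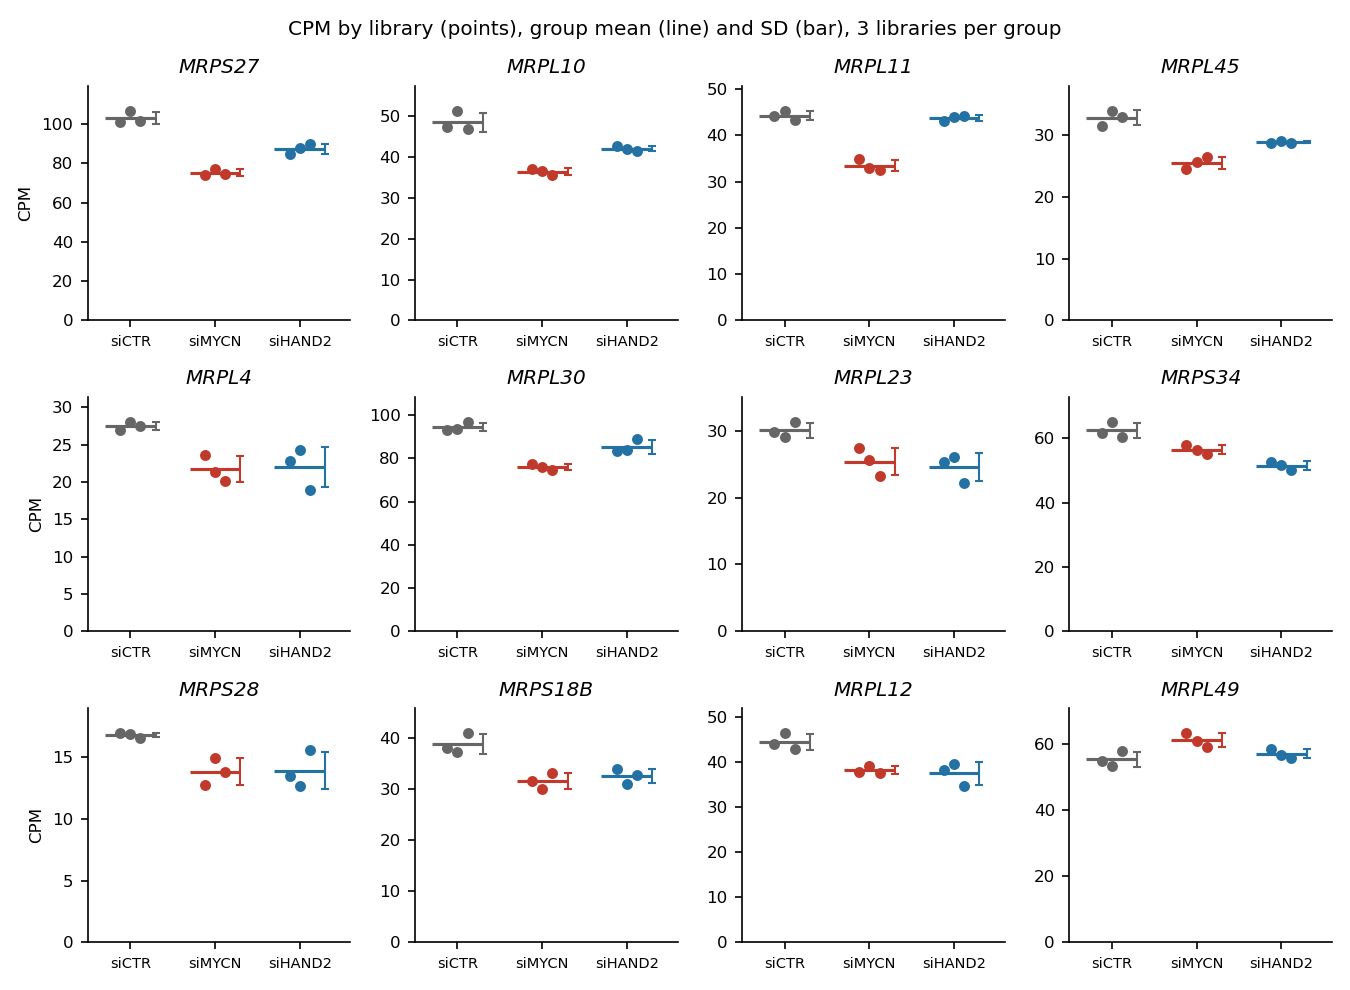
CPM (y axis, from 0) of 12 members in each library of siCTR, siMYCN and siHAND2, with points for libraries, lines for group means and bars for the SD over 3 libraries. MRPS27, MRPL10, MRPL45 and MRPL30 step down from siCTR through siHAND2 to siMYCN without overlap, MRPL11 is low in siMYCN alone, MRPS34 is lowest in siHAND2, and MRPL49 is highest in siMYCN.

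In siHAND2 against siCTR, 13 of 79 members (16.5%) were lower, none was higher and 66 did not pass. Over all genes tested, 11.8% were lower and 18.1% higher. Among the 9366 genes tested with a mean at least that of the lowest member, 14.2% were lower, near the members' share. With no call upward in the limma test, 27 members had all siHAND2 libraries below all siCTR libraries (16.6% of genes tested) and 0 had them all above (25.8%). The median log2 difference was -0.071, from -0.32 to 0.077, beside 0.039 over all genes tested. The members called lower stood at 80.04% to 90.2% of siCTR, with a median of 84.6%. By class, 5 of 30 and 2 of 21 large-subunit proteins and 2 of 16 and 4 of 11 small-subunit proteins were lower, in the order bacterial counterpart and mitochondria-specific for each subunit. The count rose to 29 when libraries were rescaled by median ratios, which moved the members' median to -0.11 and the split over all genes from 1709 lower and 2630 higher to 2313 and 1937; in siMYCN the same rescaling moved that split from 1653 and 3556 to 2353 and 2406.

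MRPL4 had the largest fall in siHAND2, with a log2 difference of -0.32 ± 0.079 (limma adjusted p = 0.00658). MRPL23, a protein at the exit of the tunnel, measured 29.8, 28.97 and 31.3 CPM with siCTR, 27.3, 25.5 and 23.3 with siMYCN, and 25.4, 26.1 and 22.2 with siHAND2. Both knockdowns lay below siCTR and overlapped each other (siHAND2 log2 difference -0.28 ± 0.071, limma adjusted p = 0.00652). Its siMYCN call (limma, adjusted p = 0.0160) did not hold in fits lacking siCTR replicate 3 or siMYCN replicate 3 (0.0637 and 0.0907; 0.00490 to 0.0907 over all alternatives). MRPS34, of the small subunit, measured 61.8, 65.1 and 60.6 CPM with siCTR, 57.8, 56.4 and 55.2 with siMYCN, and 52.8, 51.8 and 50.1 with siHAND2. It was lowest in siHAND2, with no overlap between the 3 groups, and its siHAND2 fall had the smallest p of the members (log2 difference -0.27 ± 0.047, limma adjusted p = 0.000351). Its smaller siMYCN difference (-0.14, limma adjusted p = 0.0258) was not called without siCTR replicate 1 or 2 or siMYCN replicate 2 or 3 (0.0567 to 0.131; 0.00458 to 0.131 over all alternatives).

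MRPS28, the counterpart of bacterial S1, measured 16.9, 16.8 and 16.5 CPM with siCTR, 12.7, 14.9 and 13.8 with siMYCN, and 13.4, 12.7 and 15.6 with siHAND2. Both knockdowns lay below siCTR, with wider spread than the controls. Its siHAND2 log2 difference of -0.26 (limma adjusted p = 0.0206) was not called without siCTR replicate 1 or 2 or siHAND2 replicate 1 or 2 (0.0580 to 0.103; 0.00282 to 0.103 over all alternatives), nor its siMYCN difference of -0.27 (limma adjusted p = 0.0150) without siMYCN replicate 1 (0.0707; 0.00430 to 0.0707 over all). The others lower in siHAND2 were MRPS2 (-0.23), MRPL10 (-0.20), MRPS23 (-0.19) and those named next. MRPL12 fell to 84.4% of siCTR in siHAND2 (log2 difference -0.24 ± 0.056, limma adjusted p = 0.00401) and MRPS27 to 84.9% (log2 difference -0.23 ± 0.043, limma adjusted p = 0.000701). MRPL30 (90.2% of siCTR, limma adjusted p = 0.0170) lost its siHAND2 call without siCTR replicate 3 or siHAND2 replicate 1 or 2 (0.0569 to 0.0706; 0.00239 to 0.0706 over all). MRPL45 (88.0%, limma adjusted p = 0.0193) lost it without siCTR replicate 2 or 3 (0.0544 and 0.0930; 0.00440 to 0.0930 over all).

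Both comparisons use the same 3 siCTR libraries, so their calls are not independent. MRPL37, a large-subunit protein specific to mitochondria, was called lower in siHAND2 and not in siMYCN. It had log2 differences of -0.17 in siHAND2 (limma adjusted p = 0.0241) and -0.14 in siMYCN (limma adjusted p = 0.0505), so its calls differ across a narrow margin. The siMYCN mean was the lowest of the 3 groups in 55 members (69.6%, against 27.1% of all genes tested) and the siHAND2 mean in 17 (21.5% against 26.8%). In 43 members the siHAND2 mean lay between a lower siMYCN and a higher siCTR mean (54.4% against 14.6%). Among the members called in neither comparison with siCTR were MRPL27 (56.3, 56.4 and 57.2 CPM in siCTR, siMYCN and siHAND2), MRPL35 (91.2, 91.3 and 88.1) and MRPS16 (73.4, 75.3 and 75.5).

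The knockdowns were also compared directly with each other, in the same fit to all 9 libraries, so siCTR entered the estimate of spread. In siHAND2 against siMYCN, 11 of 79 members (13.9%) were higher and 0 were lower by limma. Over all genes tested, 11.4% were higher, near the members' share, and 15.5% lower. Of the 9366 genes tested with a mean at least that of the lowest member, 12.2% were higher and 18.2% lower. All siHAND2 libraries lay above all siMYCN libraries in 22 members (17.1% of genes tested) and below them in 4 (21.6%). The median log2 difference was 0.056, beside -0.0063 over all genes tested. MRPL11 had the largest difference, at 0.38 ± 0.049 (limma adjusted p = 2.00e-05), followed by MRPS9 at 0.23 ± 0.051 (limma adjusted p = 0.00342). MRPL16, beside the peptidyl transferase centre, measured 27.1, 27.9 and 26.8 CPM in siMYCN and 33.4, 29.7 and 32.8 in siHAND2, with siCTR at 29.9, 32.9 and 30.5. Its siMYCN libraries were below both other groups, which overlapped (direct log2 difference 0.22 ± 0.060, limma adjusted p = 0.0109). Against siCTR, the siMYCN call of MRPL16 (limma adjusted p = 0.0249) did not hold in fits lacking siCTR replicate 2 or siMYCN replicate 1 or 3 (0.0610 to 0.129; 0.00548 to 0.129 over all alternatives). MRPS27 differed by 0.22 ± 0.043 (limma adjusted p = 0.00135). MRPL42, the member with the highest CPM, averaged 133.6 in siMYCN and 147.6 in siHAND2 with overlapping libraries, and its call (limma adjusted p = 0.0365) was lost without any 1 of siCTR replicate 1, siMYCN replicates 1 and 2, and siHAND2 replicates 2 and 3, and with no filter on low values, with the 2 groups fitted alone or with no intensity trend (0.0521 to 0.135; 0.00669 to 0.135 over all alternatives). The count of 11 was 7 without siMYCN replicate 2 or siHAND2 replicate 2, 7 with the 2 groups fitted alone and 18 after quantile normalization.

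Many members share a start region with another gene, and these neighbours were set beside them. In the table's coordinates, 28 members had a neighbour on the opposite strand whose start lay within 1000 bases upstream or 500 bases downstream of their own, and 26 pairs had both genes tested. In siMYCN, 2 pairs were lower on both sides, 3 moved in opposite directions, 8 had the member called alone, 6 the neighbour alone, and 7 neither. Calls were common in siMYCN, with 11.4% of all genes tested lower and 24.5% higher. The pair counts were not tested against these shares. MRPS27 and PTCD2, both encoding pentatricopeptide repeat proteins of mitochondria, fell together (log2 differences -0.45 and -0.29), as did MRPS12 and SARS2, the mitochondrial seryl-tRNA synthetase (-0.21 and -0.26). MRPL11 fell while PELI3 rose by 0.26, MRPS34 fell while EME2 rose by 0.30, and MRPL49 rose while FAU, which encodes a cytosolic ribosomal protein and starts 5 bases away, fell (log2 difference -0.19, limma adjusted p = 0.00452). MRPL43 was not called (-0.10), but its neighbour TWNK, the mitochondrial DNA helicase, fell in both knockdowns (-0.42 and -0.43). MRPL46 and MRPS11, members that start 62 bases apart head to head, were called in neither knockdown (0.042 and 0.059 in siMYCN). In siHAND2 no pair was called on both sides, 5 had the member alone, 3 the neighbour alone and 18 neither. Of all genes tested, 11.8% were lower in siHAND2 and 18.1% higher. MRPS27 shares 280 bases with PTCD2, MRPS12 216 with SARS2, MRPL11 412 with PELI3, MRPS34 341 with EME2 and MRPL43 149 with TWNK. The use of strand in counting is not given in the sources used here. In all, 45 members overlapped another annotated gene, and in 32 of them that gene averaged at least 1 CPM.

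**Figure D4:**
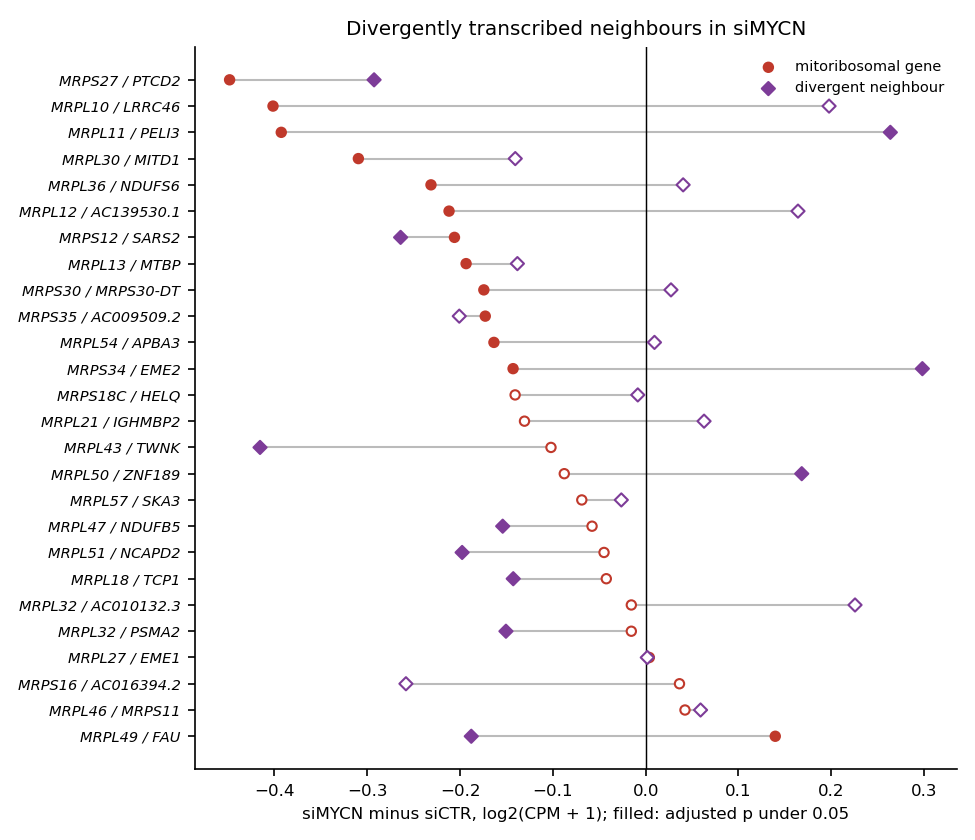
siMYCN minus siCTR on the log2(CPM + 1) scale for 26 pairs of a member (red circles) and its divergently transcribed neighbour (purple diamonds), joined by a line, with filled symbols where the limma adjusted p was under 0.05. Pairs such as MRPL11 and PELI3 (-0.39 and 0.26) lie on opposite sides of 0, whereas MRPS27 and PTCD2 lie together on the left.

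Other genes of mitochondrial translation were counted from lists chosen for their roles. Of 4 ribosome subunits outside the naming rule, PTCD3, another pentatricopeptide repeat protein of the small subunit, fell in siMYCN (log2 difference -0.17) and 0 were called in siHAND2 (1 lower without siHAND2 replicate 1 or 3, and 2 after median-ratio rescaling). Of 27 assembly and rRNA modification factors, 9 were lower (33.3%, against 11.4% of all genes tested) and 1 higher in siMYCN, and 4 were lower in siHAND2 (14.8%, near the 11.8% of all genes tested). These included NOA1, a GTPase of small-subunit assembly (-0.41 in siMYCN and -0.34 in siHAND2), and RPUSD4, a pseudouridine synthase of the large rRNA (-0.41 in siMYCN). NGRN, which stabilises the large rRNA, rose in siMYCN (0.30), and TRUB2, another pseudouridine synthase, fell in siHAND2 (-0.24). The count of 9 was 5 without siCTR replicate 3 or siMYCN replicate 1, the 1 higher was 2 without siCTR replicate 3, and the count of 4 was 2 without siCTR replicate 2. Of 17 translation factors, 9 were lower (52.9%) and 1 higher in siMYCN (0 higher without siMYCN replicate 3) and 5 were lower in siHAND2 (29.4%), among them LRPPRC, which stabilises mitochondrial mRNAs (-0.36 and -0.30), the recycling factor MRRF (-0.36 in siMYCN) and the elongation factor TUFM (-0.20 in siHAND2). Of 18 factors of mitochondrial transcription and RNA processing, 8 were lower (44.4%) and 1 higher in siMYCN (0 higher without any 1 of siCTR replicates 1 and 2 and siMYCN replicates 1 and 2) and 5 were lower in siHAND2 (27.8%). PNPT1 and SUPV3L1, the nuclease and helicase of mitochondrial RNA decay, fell in siMYCN (-0.37 and -0.23), and the polymerase POLRMT and the RNA-binding protein TBRG4 fell in siHAND2 (-0.36 and -0.25).

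Both rRNAs of the mitochondrial ribosome were higher in both knockdowns. Of the 15 rRNAs and mRNAs encoded in mitochondrial DNA, 4 were higher and 0 lower in siMYCN, and 2 were higher and 0 lower in siHAND2, by limma; these shares of 26.7% and 13.3% higher stand beside 24.5% and 18.1% of all genes tested, and after median-ratio rescaling the 4 became 2. MT-RNR1, the rRNA of the small subunit, measured 109, 122 and 89.7 CPM with siCTR, 136, 155 and 164 with siMYCN, and 165, 203 and 138 with siHAND2. All knockdown libraries lay above siCTR (log2 differences 0.51 and 0.65, limma adjusted p = 0.00253 and 0.000429). MT-RNR2, the rRNA of the large subunit, averaged 991 ± 64.7, 1196 ± 78.3 and 1179 ± 114 CPM (SD, n = 3; log2 differences 0.27 and 0.25). Whether rRNA was depleted before sequencing is not given in the sources used here, and the part of library preparation in these values was not tested. The siHAND2 counts were 5 higher without siHAND2 replicate 1 and 1 higher without siCTR replicate 3, and 5 mitochondrial transcripts were lower without siHAND2 replicate 3. Of 84 cytosolic ribosomal protein genes tested, 82 were lower and 1 higher in siMYCN (median -0.45; 0 higher without any 1 of siCTR replicates 1, 2 and 3 and siMYCN replicates 1 and 2), with RPL12 at -0.63 and RPL7A at -0.55. In siHAND2 60 were lower (median -0.16; 33 lower without siCTR replicate 2), with RPL15 at -0.34 and RPS7 at -0.33. The members' medians of -0.13 and -0.071 were therefore nearer to 0 than those of the cytosolic list in both knockdowns, a difference between lists that was not tested.

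**Figure D5:**
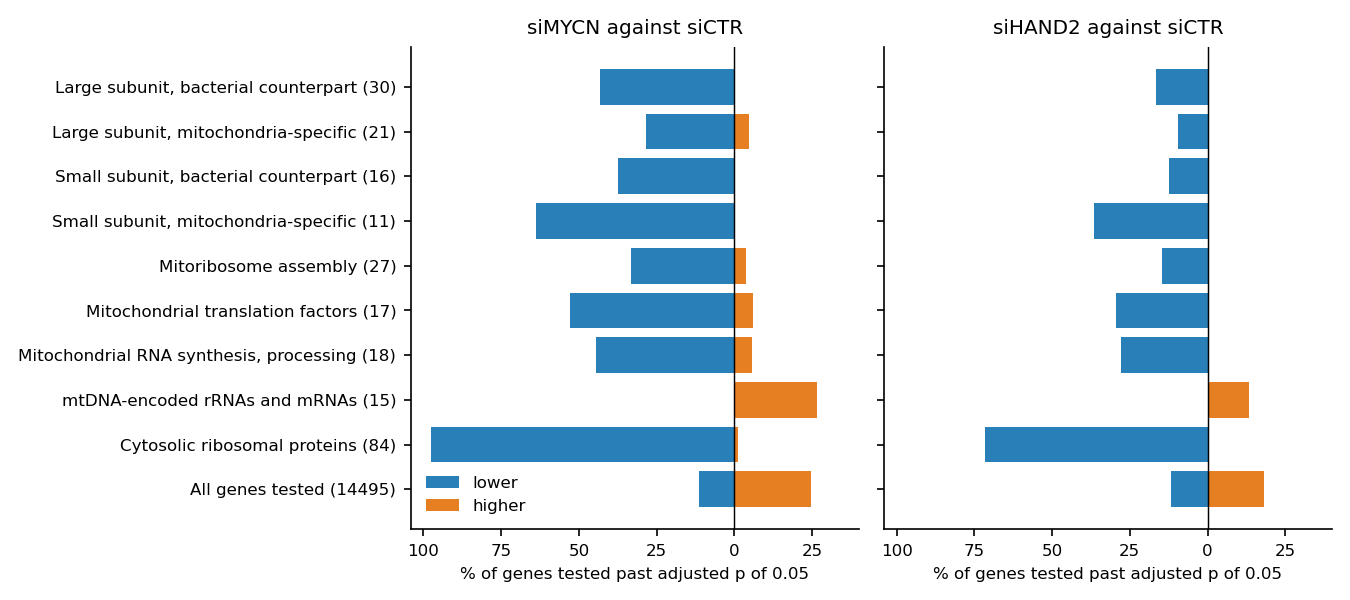
Share of tested genes called lower (blue, left of 0) or higher (orange, right of 0) at a limma adjusted p under 0.05 in siMYCN (left panel) and siHAND2 (right panel), for the 4 classes of members, related gene lists and all 14495 genes tested, with list sizes in parentheses. Every class of members has a larger share lower in siMYCN than the 11.4% of all genes tested, and the cytosolic ribosomal proteins have the largest share.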

How the data were processed

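The 9 libraries were of total RNA. The authors deposited 1 table of CPM for the series, with 1 column per library, matched to samples by name; every value holds a constant of 0.0001, which was subtracted. STAR 2.5.1 and Partek are named in the submitters' processing notes; counting, strand use and multi-mapped reads are not given in the sources used here. Those notes name GRCh37 (hg19), but of 18215 symbols found in RefSeq's GRCh38 list, 91.4% start within 5000 bases of the deposited start, so coordinates are GRCh38, counted from 1. Promoters come from RefSeq (GRCh38.p14) and transcript lengths from the canonical GENCODE v44lift37 transcript, by symbol.

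Between 79.9% and 81.3% of low values were whole multiples of a smallest step within 0.02 of a step, under the 95% needed for a count model; the step gave the depth, and at 1 CPM it stands for 21.1 to 32.7 reads, before any counting error of duplicated reads. Tests used log2(CPM + 1), which understates changes of low genes, on the 14495 genes that reached 1 CPM in 3 or more libraries (10589 did not). A linear model (limma 3.58.1, R 4.3.3, eBayes with intensity trend, 10.1 prior degrees of freedom) was fitted to all 9 libraries, two-sided, with Benjamini-Hochberg adjustment over all genes tested and a threshold of 0.05. The fit was run on simulated data in which a small set of genes was changed in the siMYCN group alone. A shift of many genes at once was not simulated.

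The members and lists were chosen with earlier results of these data known. Named are DAP3; the MRPS18 paralogs; the 3 highest and 3 lowest members by CPM; for each comparison with siCTR the 6 largest falls and rises among members past the threshold, at a mean of at least 5 CPM, whose groups do not overlap, and the 4 largest in the direct comparison; and for each list the 2 genes with the smallest p. Other genes, among them the remaining called members, MRPL9, MRPL22, MRPL27, MRPL33, MRPL41, MRPL51, MRPS16, MRPS33, MRPS36 and the divergent neighbours, were named after their values were seen. Alternatives were pseudocounts of 0.1 and 5, no filter or 1 of 5 CPM, quantile normalization, median-ratio rescaling, 2 groups alone, no intensity trend, a replicate block and each library left out.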

Additional observations from a re-analysis of the deposited data

How the results depend on the processing

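Of 36 called results of named members, 0 changed direction under an alternative and 11 lost their call under at least 1. The 1 member higher in siMYCN became 0 with median-ratio rescaling, quantile normalization or no intensity trend (0 to 1 with a library left out). The 13 lower in siHAND2 became 29 with median-ratio rescaling (10 to 15). The 0 lower in siHAND2 against siMYCN became 2 with a filter of 5 CPM (0 to 1), and the 11 higher became 18 with quantile normalization and 7 with 2 groups alone (7 to 13). The cause of these shifts was not tested. The 32 lower in siMYCN ranged from 22 to 38 with a library left out, the 22 without siCTR replicate 3. Median-ratio rescaling and quantile normalization moved the median of all genes in siMYCN from 0.060 to 0.0067 and 0, and the members' median to -0.19 and -0.18; the split over all genes under quantile normalization was 2395 lower and 2333 higher in siMYCN and 2166 and 1981 in siHAND2. Groups share replicate numbers, and 6 of 9 same-numbered pairs correlated above 0.1 (-0.040 to 0.31). Differently numbered pairs ran from -0.30 to 0.14. The main fit did not pair samples by number, and whether libraries of the same number were handled together was not tested. With the replicate block 37 members were lower in siMYCN, 14 lower in siHAND2, and in siHAND2 against siMYCN 13 higher and 2 lower. The smallest fall called in siMYCN left 90.7% of the siCTR mean.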
